A study of Mus musculus with 16 samples.

Results

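The genes described here are 28 genes of cholesterol and fatty acid synthesis that are known targets or regulators of the sterol regulatory element-binding proteins (SREBPs), taken by symbol from the count tables of mouse primary cortical neurons in which the nucleoporin Nup153 was knocked down. All 28 had a row in the table of basal cultures, which lists 26371 genes, and in the table of silenced cultures, which lists 55304. Each culture came from the pooled cortices of C57/BL6 embryos of 1 litter, aged embryonic day 17.5 to 19.5, and every culture received an adeno-associated virus (AAV) from day 8 to day 13 in vitro, so the controls carry a virus and a hairpin too.

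The libraries fall into 5 groups. Basal cultures received AAV with a control hairpin (shControl, 4 libraries), with a first hairpin against Nup153 (shNup153-1, 2 libraries) or with a second one (shNup153-2, 2 libraries). Silenced cultures received shControl (3 libraries) or shNup153-2 (3 libraries), and in addition tetrodotoxin, a blocker of voltage-gated sodium channels, at 1 to 2 µM from day 12 for 24 hours and D-AP5, an NMDA receptor blocker, at 100 µM for the last 6 hours. Cultures went on to sequencing only if their knockdown had been judged sufficient and their RNA integrity number was above 8, per the labels' protocols. A further 2 columns carry one and the same name, could not be tied to a sample and were left out. Library totals ranged from 26863535 to 56299817 counts, and levels are given as CPM, the counts of a gene per 1000000 counts of its library, after 1 scaling across the 14 libraries. From line 16420 of the basal table downward the shNup153-1 columns are out of register with the gene names, so only lines above that were used for them. Hmgcs1 lies below it and has no shNup153-1 value, and 27 of the 28 genes have one.

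Cholesterol is built from acetyl-CoA through mevalonate, isoprenoids, squalene and lanosterol, and most of the enzymes on this route are transcribed under SREBP2, while SREBP1 acts more on fatty acid synthesis. SREBPs are made as membrane proteins of the endoplasmic reticulum, where SCAP escorts them to the Golgi for cleavage when sterols are low and the INSIG proteins hold SCAP back when sterols are high. Brain cholesterol is almost all made in the brain and not drawn from the blood, and both astrocytes and neurons make it, with mature neurons taking up part of theirs from astrocytes.

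SREBPs bind short sterol regulatory elements next to inverted CCAAT boxes, which NF-Y binds. RefSeq promoter windows (build GRCm38.p6, 250 bases before to 50 bases after each start site) were at hand for 22 of the 28 genes. The inverted CCAAT letters ATTGG, sought on both strands, were in the windows of 19 of the 22 (86.4%), against 41.1% of all 27025 genes with such windows. The GC box GGGCGG was likewise in 19 of 22 (86.4%), against 38.2% of all genes, and the E-box CANNTG in 18 of 22 (81.8%), against 75%. The core sterol element written as TCACNCC was in 5 of 22 (22.7%), against 17.6%, and its stricter form TCACCCC, which is contained in the first, was in 3 of 22 (13.6%: Hmgcs1, Srebf2 and Insig2), against 5.61%. A match is a string of letters and not a bound site. The windows before Hsd17b7, Lss and Sc5d are shown because these 3 genes passed the test with shNup153-1 below. That of Hmgcs1 is shown because it holds both kinds of element. Capitals mark ATTGG and TCACNCC on either strand. Only bases before the start site are shown, and those inside the annotated gene were left off.
Hmgcs1, chr13:119690101-119690350, plus strand: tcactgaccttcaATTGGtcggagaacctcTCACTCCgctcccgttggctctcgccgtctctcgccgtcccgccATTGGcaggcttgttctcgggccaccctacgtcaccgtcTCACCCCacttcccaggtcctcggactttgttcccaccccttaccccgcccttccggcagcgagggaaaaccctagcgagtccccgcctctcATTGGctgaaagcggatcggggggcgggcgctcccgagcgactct
Hsd17b7, chr1:169969242-169969455, minus strand: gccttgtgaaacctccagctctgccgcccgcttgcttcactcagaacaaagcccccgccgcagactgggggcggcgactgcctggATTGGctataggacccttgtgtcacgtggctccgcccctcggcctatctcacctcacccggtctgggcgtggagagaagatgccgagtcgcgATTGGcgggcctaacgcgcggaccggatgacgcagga
Lss, chr10:76531355-76531587, plus strand: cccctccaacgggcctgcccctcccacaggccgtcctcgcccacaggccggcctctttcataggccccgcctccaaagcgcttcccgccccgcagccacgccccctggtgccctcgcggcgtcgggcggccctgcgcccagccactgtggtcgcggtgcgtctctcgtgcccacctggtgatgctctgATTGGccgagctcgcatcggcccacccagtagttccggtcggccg
Sc5d, chr9:42264301-42264550, minus strand: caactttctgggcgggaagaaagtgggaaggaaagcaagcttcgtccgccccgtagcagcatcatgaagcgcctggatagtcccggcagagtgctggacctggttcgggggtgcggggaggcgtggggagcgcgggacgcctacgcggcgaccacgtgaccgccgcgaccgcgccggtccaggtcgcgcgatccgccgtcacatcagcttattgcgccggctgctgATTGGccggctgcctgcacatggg
The Hmgcs1 stretch shown holds 3 ATTGG matches and 2 TCACNCC matches, and a further ATTGG match lies at bases 11 to 15 after the start site. The windows of Hsd17b7, Lss and Sc5d hold 2, 1 and 1 ATTGG matches in the stretch shown and no TCACNCC match.

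In basal shControl cultures the level per kilobase of exon was highest for Scd2, a stearoyl-CoA desaturase, at 240 CPM per kb (mean, n = 4) and next for Hmgcs1, the synthase that commits acetyl units to mevalonate, at 198 CPM per kb. Acat2, Insig1 and Sqle followed at 50.1, 49.5 and 47.6 CPM per kb, and the spread over the 4 libraries was wider than the gaps between these 3. At the low end stood Fdps at 3.38, Acaca at 3.73 and Ebp at 3.98 CPM per kb. Some of these levels rest on shared exon sequence: 26.7% of the exon length of Fdps is covered on the same strand by Gm43738 and 12.1% of that of Tm7sf2 by Vps51, while 18.3% of Fdft1, 13.2% of Scap, 12.1% of Hmgcs1 and 9.22% of Idi1 is covered on the opposite strand. The libraries were made with a directional kit, and no source used here names the strand setting of the counting.

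The targeted gene was read first. Nup153 stood at 94.5, 52.9, 77.8 and 56.8 CPM in basal shControl, at 17.1 and 27.98 CPM with shNup153-1 and at 13.5 and 11.6 CPM with shNup153-2. Silenced controls had 64.2, 52.1 and 61.8 CPM, and silenced knockdown cultures 10.6, 13.4 and 9.4 CPM. Its log2 fold change in edgeR's quasi-likelihood test was -1.67 (SE 0.32, Benjamini-Hochberg adjusted p = 0.0122) for shNup153-1, -2.52 (SE 0.29, adjusted p = 0.00502) for shNup153-2 in basal and -2.40 (SE 0.17, adjusted p = 0.00534) in silenced cultures. The neuron markers summed to between 4456 and 7360 CPM in every library with none of the 10 at 0, while microglial markers summed to at most 1.84 CPM. Astrocyte markers were present in all libraries and summed to between 379 and 3882 CPM, so these cultures are not pure neurons, and in bulk RNA fewer cells of a type and less RNA per cell cannot be told apart.

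With shNup153-1 in basal cultures, 3 of the 27 genes fell at an adjusted p under 0.05 and none rose: Hsd17b7, Lss and Sc5d, which act after squalene. Among all 14529 genes tested 7.05% fell and 6.52% rose, and 3 of 27 stands near that background. DESeq2 called 9 of the 27 lower and none higher, where it called 11.2% of all genes lower. By direction, 23 of the 27 had a log2 fold change below 0, with a median of -0.69 against -0.02 for all genes, of which 51.1% lay below 0. At an unadjusted p under 0.05 there were 11 genes lower and none higher, where 15.2% of all genes were lower. Both shNup153-1 libraries lay below all 4 shControl libraries for 12 of the 27 genes, where the share among all genes was 17.9%, and none of them had both libraries above, where that share was 18.2%.

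Hsd17b7, a ketosteroid reductase that takes part in removing the methyl groups at carbon 4 of the sterol ring, moved most. Its level was 115.6, 57.9, 57.7 and 45.9 CPM in basal shControl and 7.8 and 11.1 CPM with shNup153-1. Both knockdown libraries lay far below the lowest control, and the log2 fold change was -2.90 (SE 0.42, edgeR adjusted p = 0.00493). Lss, lanosterol synthase, which closes the sterol rings, was at 90.8, 102.4, 61.3 and 53.0 CPM in the controls and at 23.7 and 28.7 CPM with shNup153-1, without overlap (log2 fold change -1.57, SE 0.30, edgeR adjusted p = 0.0120). Sc5d, the sterol C5-desaturase of the last steps, was at 98.8, 126.6, 94.4 and 99.1 CPM in the controls and at 68.9 and 64.3 CPM with the hairpin (log2 fold change -0.68, SE 0.18, edgeR adjusted p = 0.0405). The 3 calls rest on few libraries. Without replicate 1 of shNup153-1 the log2 fold changes were -2.66 for Hsd17b7, -1.44 for Lss and -0.72 for Sc5d. That fit leaves 1 library in the group, whose own spread cannot be measured, so its calls are not given. Sc5d did not pass in any fit that left out 1 shControl library.

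**Figure D1:**
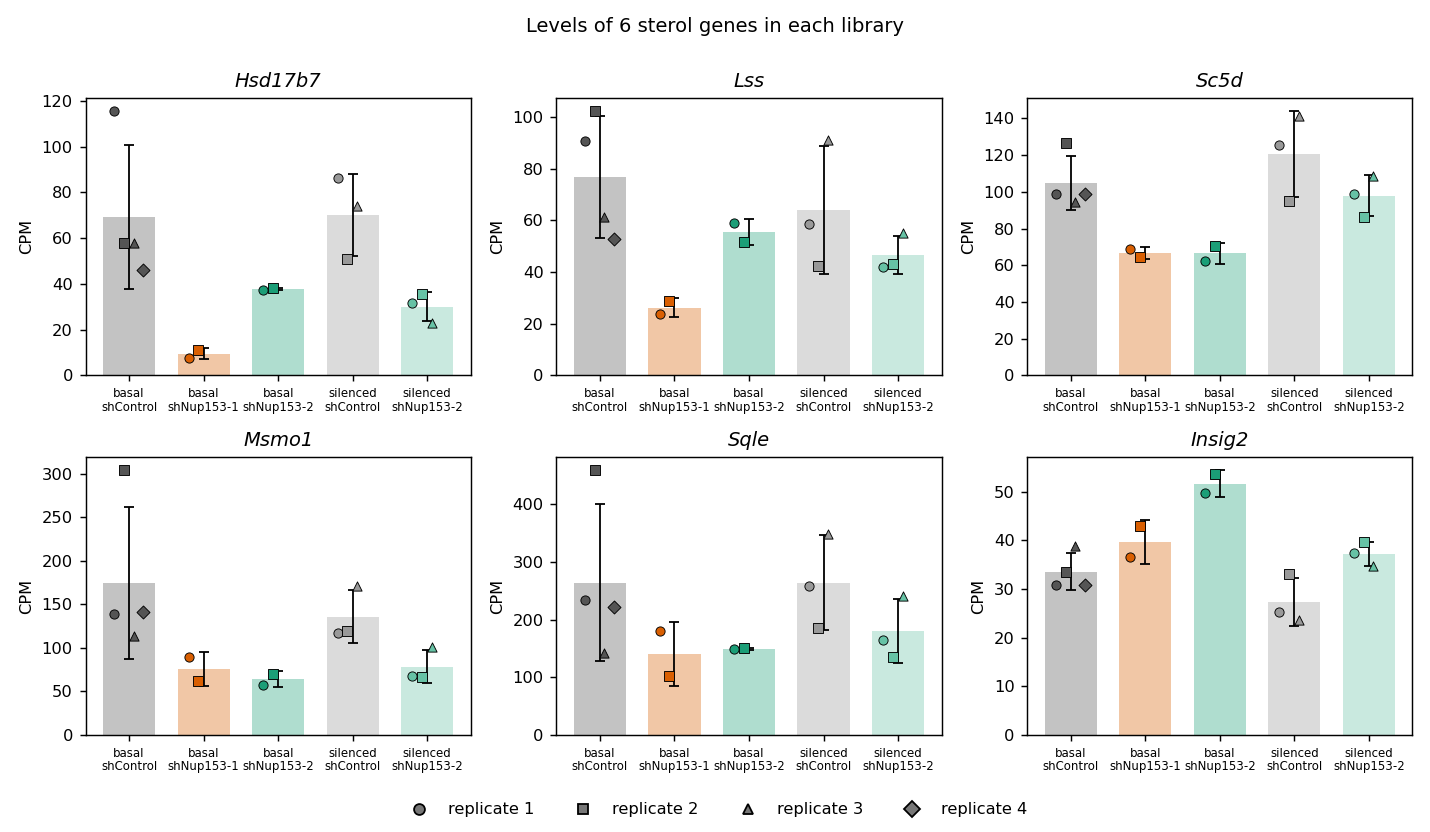
Level in CPM (y axis, from 0) of 6 sterol genes in the 14 libraries, by group (x axis); bars are means, whiskers SDs, and each symbol is 1 library with its replicate number. Hsd17b7 is at 7.8 and 11.1 CPM with shNup153-1 and between 45.9 and 115.6 CPM in basal shControl, and Msmo1 is at 303.9 CPM in replicate 2 of basal shControl.

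In the mevalonate branch none of the 6 genes with a value passed the test with shNup153-1, and 5 of the 6 were below 0 with a branch median of -0.94. Mvd, which decarboxylates mevalonate diphosphate, was at 57.2, 154.3, 29.3 and 58.9 CPM in the controls and at 25.7 and 13.97 CPM with the hairpin (log2 fold change -1.94, SE 0.61, edgeR adjusted p = 0.0698). For Fdps, the farnesyl diphosphate synthase, these were 9.5, 29.4, 5.8 and 12.3 CPM against 5.6 and 3.2 CPM (log2 fold change -1.71, SE 0.61, adjusted p = 0.101). Mvd and Fdps lay below all controls in both libraries, as did Idi1, the isopentenyl diphosphate isomerase. Pmvk, phosphomevalonate kinase, had the opposite sign, at 67.7 and 33.6 CPM against 21.9 to 45.5 CPM in the controls (log2 fold change 0.66, SE 0.35, adjusted p = 0.246).

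Besides Lss, both other genes of the squalene and lanosterol steps, Fdft1 (squalene synthase) and Sqle (squalene epoxidase), were below 0 with log2 fold changes of -1.07 and -0.93, and their libraries overlapped the controls. After lanosterol, 2 of 8 genes fell (Hsd17b7 and Sc5d). Msmo1, the methylsterol monooxygenase, was at 138.6, 303.9, 113.6 and 141.4 CPM in the controls and at 89.6 and 61.9 CPM with shNup153-1 (log2 fold change -1.23, SE 0.40, edgeR adjusted p = 0.0785). Dhcr7, which makes cholesterol from 7-dehydrocholesterol, had a log2 fold change of -1.08 (SE 0.33, adjusted p = 0.0654). Both lay below all controls. Cyp51, the lanosterol demethylase (-0.04), and Ebp, the sterol isomerase (0.41), had log2 fold changes near or above 0.

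None of the 5 genes of the SREBP machinery passed with shNup153-1. Srebf2, which encodes SREBP2, was at 236.6, 254.1, 169.0 and 211.8 CPM in the controls and at 145.2 and 145.1 CPM with the hairpin, below all controls (log2 fold change -0.61, SE 0.20, edgeR adjusted p = 0.0772). Insig1, itself an SREBP target, was at 138.4, 231.1, 127.7 and 115.7 CPM against 97.5 and 95.8 CPM, also without overlap (log2 fold change -0.69, SE 0.29, adjusted p = 0.153). Scap was at 118.2, 115.7, 105.0 and 127.5 CPM against 93.4 and 99.8 CPM (log2 fold change -0.30, SE 0.16, adjusted p = 0.248). Srebf1 (39.6 and 69.0 CPM) and Insig2 (36.5 and 42.9 CPM) overlapped their controls, which ran from 28.4 to 71.1 and from 30.8 to 38.9 CPM. Stard4, a carrier of sterol between membranes, was at 31.7 and 27.3 CPM against 36.0 to 82.4 CPM (log2 fold change -1.06, SE 0.34, adjusted p = 0.0743). The 4 genes of fatty acid synthesis overlapped their controls and ran from -0.54 for Fasn, fatty acid synthase, to 0.16 for Scd1, a desaturase.

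With shNup153-2 in basal cultures none of the 28 genes passed the test, where 9.55% of all 19682 genes did. At an unadjusted p under 0.05, 3 were lower and 1 higher (14.3% and 14.6% of all genes). DESeq2 called 3 (Msmo1 and Sc5d lower, Insig2 higher), where it called 8.64% of all genes lower. A fit with all 3 basal groups called 2 lower over the lines above the displaced ones, where 5.16% of all genes fell. Over all lines as deposited it called 0. There were 18 of 28 genes below 0, with a median log2 fold change of -0.43 against -0.03 over all genes, of which 51.7% lay below 0. Msmo1 was at 57.7 and 70.6 CPM, below all controls (log2 fold change -1.48, SE 0.42, edgeR adjusted p = 0.0654). Sc5d, at 62.5 and 70.4 CPM, was close to its levels with the other hairpin (log2 fold change against shControl -0.69, SE 0.20, adjusted p = 0.0685). Hsd17b7 was at 37.3 and 38.1 CPM, also below all controls (log2 fold change -0.91, SE 0.36, adjusted p = 0.147). Insig2, one of the proteins that retain SCAP, was at 49.8 and 53.6 CPM against 30.8, 33.5, 38.9 and 30.8 CPM in the controls, above all of them (log2 fold change 0.59, SE 0.17, adjusted p = 0.0666). Below all controls were 4 of the 28 genes and above all controls 2 (Scap and Insig2), against 20.7% and 23.2% of all genes. All 7 genes of the mevalonate branch and all 3 of the squalene and lanosterol steps had a negative log2 fold change, from -0.30 for Pmvk to -1.15 for Fdps, while the 4 fatty acid genes lay between 0.05 and 0.44. Srebf2, at 254.8 and 244.1 CPM, lay near the top of its control range of 169.0 to 254.1 CPM (log2 fold change 0.16, SE 0.22, adjusted p = 0.640).

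**Figure D2:**
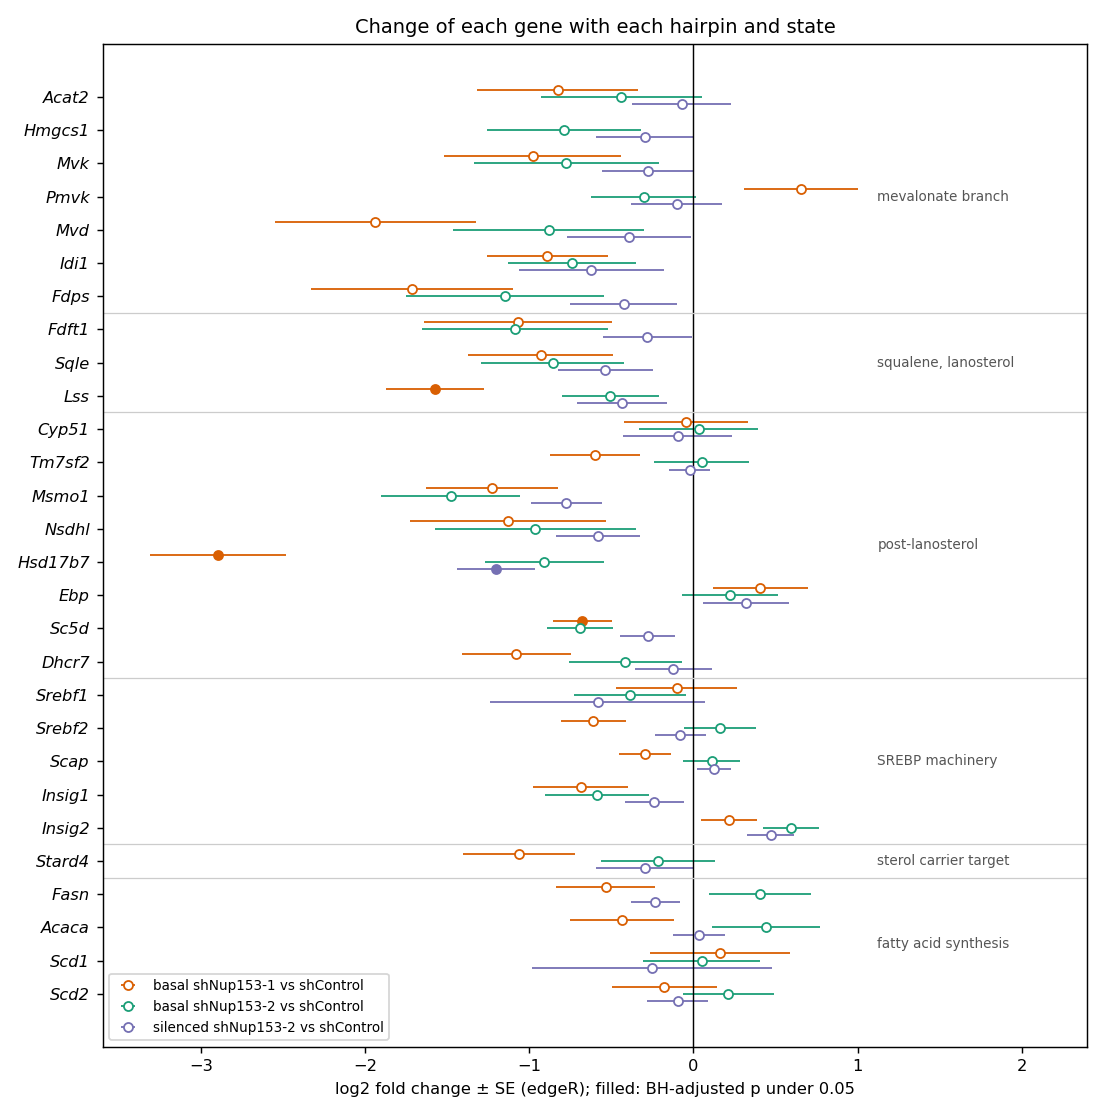
Log2 fold change with its SE (x axis) of the 28 genes (y axis, grouped by step) for shNup153-1 and shNup153-2 against shControl in basal cultures and shNup153-2 against shControl in silenced cultures; filled points have an adjusted p under 0.05. Filled points are Hsd17b7, Lss and Sc5d for shNup153-1 and Hsd17b7 in silenced cultures, and the Hsd17b7 point for shNup153-1 lies furthest left at -2.90.

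Both basal comparisons share their control libraries, so the likeness of their signs is not separate evidence. The hairpins were therefore set against each other directly. Of 27 genes 1 differed: Hsd17b7 was higher with shNup153-2 than with shNup153-1 by 1.98 on the log2 scale (SE 0.43, edgeR adjusted p = 0.0406), where 2.81% of all genes were called higher. The call was lost whenever any 1 of the 4 libraries was left out (adjusted p from 0.0660 to 0.273). Lss was 58.9 and 51.8 CPM with shNup153-2 and 23.7 and 28.7 CPM with shNup153-1 (log2 difference 1.07, SE 0.32, adjusted p = 0.0902), and Srebf2 differed by 0.77 (SE 0.23, adjusted p = 0.0838). For 15 of the 27 genes both shNup153-2 libraries lay above both shNup153-1 libraries, against 33.2% of all genes. Msmo1 and Sc5d differed by -0.25 (SE 0.44) and -0.01 (SE 0.20) on the log2 scale.

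Markers of other cells moved with the hairpins. Of 15 tested markers of the oligodendrocyte lineage 11 rose with shNup153-1, among them Bcas1 and Enpp6, and the list summed to 820 and 860 CPM against 121 to 291 CPM in basal shControl and 258 and 385 CPM with shNup153-2. Of the 17 listed markers 15 had a value in every library and enter these sums, and between 1 and 4 of the 15 were at 0 in the basal shControl libraries, and none was in those of shNup153-1. Of the 13 astrocyte markers 2 rose (S100b and Acsbg1), and of the 8 tested vascular and fibroblast markers 2 fell (Flt1 and Kdr). With shNup153-2 in basal cultures 1 of the 8 vascular and fibroblast markers fell (Kdr, log2 fold change -4.44) and 1 rose (Col1a1, a fibroblast collagen, 1.95). Of 3 tested microglial markers 1 rose (P2ry12, 2.81), and of 10 neuron markers 1 rose (the glutamate transporter Slc17a7, 0.87). None of the 13 astrocyte markers and 10 tested markers of the oligodendrocyte lineage passed. Kdr and P2ry12 were low with this hairpin, at 0.05 to 0.21 and 0.49 to 0.64 CPM. The part of these cells in the sterol gene values was not tested.

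**Figure D3:**
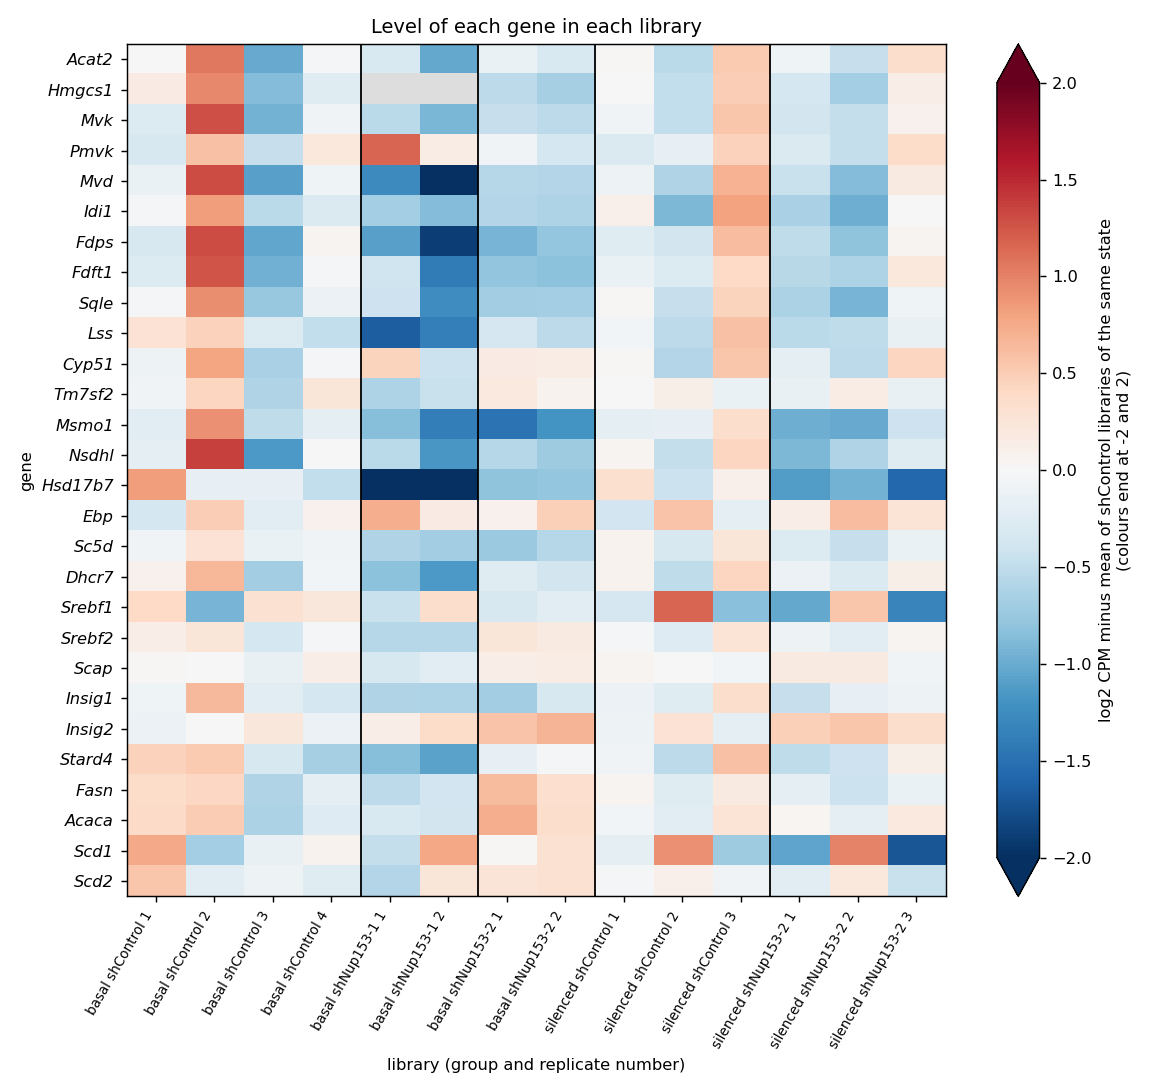
Level of each of the 28 genes (rows) in each of the 14 libraries (columns), as log2 CPM minus the mean of the shControl libraries of the same state; red is higher, blue lower, and grey marks Hmgcs1, which has no shNup153-1 value. Most genes of sterol synthesis are red in replicate 2 of basal shControl and in replicate 3 of silenced shControl.

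The shControl libraries themselves differed widely in these genes. Over 17 genes of sterol synthesis (Acat2 to Dhcr7 without Hmgcs1) the mean log2 CPM was 5.69, 6.58, 5.10 and 5.68 in basal shControl, against 5.15 and 4.68 in the shNup153-1 libraries and 5.30 and 5.29 in those of shNup153-2. Replicate 2 stood highest and replicate 3 lowest of the controls. Control replicate 3 was below both shNup153-2 libraries and below replicate 1 of shNup153-1. The astrocyte markers summed to 3205, 773, 2129 and 1706 CPM in the same 4 controls, lowest in replicate 2, and to 1777 and 3882 CPM with shNup153-1 and 2912 and 3342 CPM with shNup153-2. Without replicate 2 the median over the genes was -0.42 for shNup153-1, and 2 of 27 fell (Hsd17b7 and Lss), where 6.89% of all genes did. For shNup153-2 the median was -0.14, and 1 of 28 then fell, where 4% of all genes did. This was Msmo1 (log2 fold change -1.06, edgeR adjusted p = 0.0196). The part of the astrocytes in these values was not tested.

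**Figure D4:**
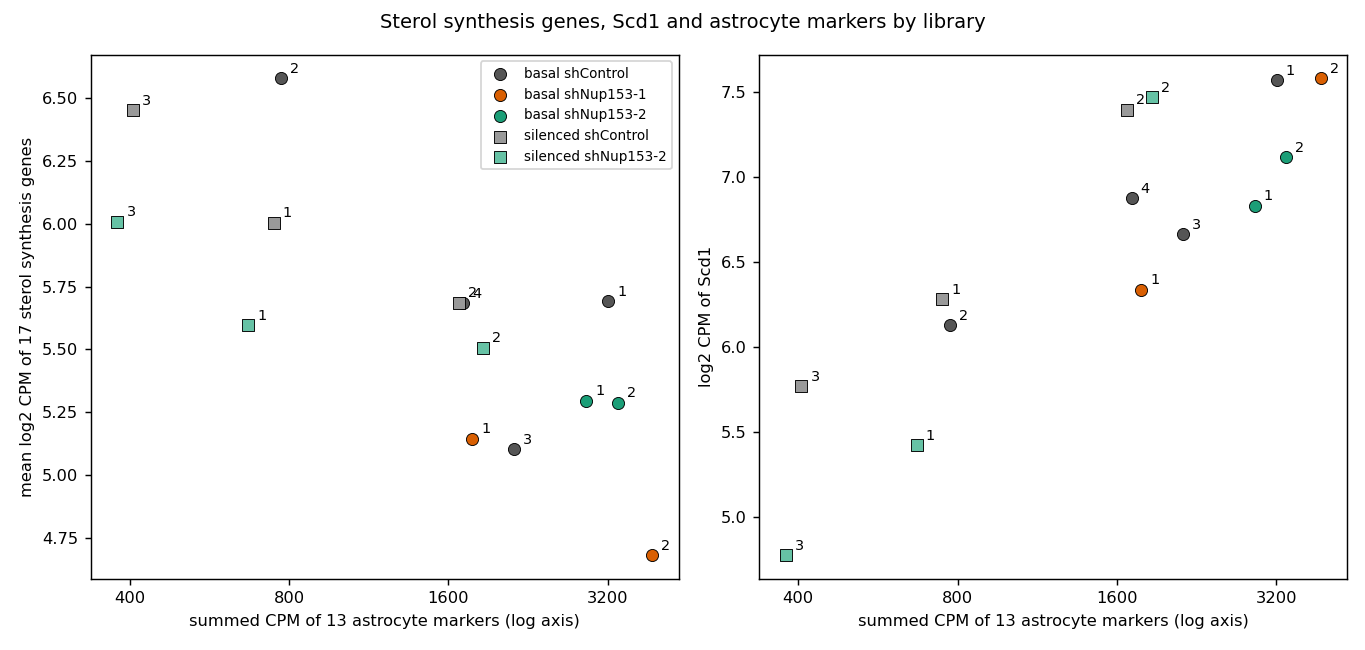
Summed CPM of 13 astrocyte markers (x axis, log scale) against the mean log2 CPM of 17 sterol synthesis genes (left) and the log2 CPM of Scd1 (right); each point is 1 library with its replicate number, circles basal and squares silenced. Libraries with few astrocyte marker counts, such as replicate 2 of basal shControl and replicate 3 of both silenced groups, stand high on the left and low on the right.

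In silenced cultures 1 of the 28 genes fell with shNup153-2, and it was again Hsd17b7; the background among 18965 genes was 1.83% that fell. Its level was 86.0, 50.6 and 73.9 CPM with shControl and 31.7, 35.5 and 23.0 CPM with shNup153-2, without overlap (log2 fold change -1.20, SE 0.24, edgeR adjusted p = 0.0468). Leaving out 1 library kept the call only without replicate 2 of shControl, and in the other 5 fits the adjusted p ran from 0.0637 to 0.187. Of the 28 genes 24 lay below 0, with a median log2 fold change of -0.26 against 0.01 for all genes, of which 49% lay below 0. Without replicate 3 of silenced shControl the median was -0.06 and 16 of the 28 lay below 0. Without replicate 3 of silenced shNup153-2 the median was -0.37 and 22 of the 28 lay below 0. Replicate 3 stood highest over the 17 sterol synthesis genes in both silenced groups, and each of these fits kept the other group's replicate 3.

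The silenced libraries with equal replicate numbers deviated together, and with the number as a block 11 of the 28 genes fell and 1 rose, where 10.3% of all genes fell and 11.7% rose. In the mevalonate branch Hmgcs1, Mvd, Idi1 and Fdps fell. Hmgcs1 was at 969.6, 687.5 and 1365.3 CPM with shControl and at 756.7, 606.0 and 1067.1 CPM with shNup153-2 in replicates 1, 2 and 3, lower within each number although the groups overlap (blocked log2 fold change -0.28, SE 0.08, edgeR adjusted p = 0.0487). Mvd fell by 0.36 on the log2 scale (adjusted p = 0.0179), Idi1 by 0.54 (adjusted p = 0.0475) and Fdps by 0.40 (adjusted p = 0.0371) in the same blocked edgeR fit. Fdft1 and Sqle fell too. Sqle was at 258.8, 184.6 and 348.5 CPM with shControl and at 163.9, 134.4 and 241.0 CPM with shNup153-2 (blocked log2 fold change -0.53, SE 0.07, adjusted p = 0.00373 against 0.365 without the block).

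After lanosterol, Msmo1, Nsdhl, Hsd17b7 and Sc5d fell under the block. Msmo1 was at 117.5, 119.4 and 171.4 CPM with shControl and at 68.3, 66.5 and 100.6 CPM with shNup153-2, without overlap and with nearly equal log2 differences of -0.78, -0.84 and -0.77 within replicates 1, 2 and 3 (blocked edgeR adjusted p = 0.000836, and 0.109 without the block). The same differences for Hsd17b7 were -1.44, -0.51 and -1.68, smallest in replicate 2. Msmo1, Nsdhl and Hsd17b7 encode the enzymes that together remove the carbon 4 methyl groups. Nsdhl fell by 0.56 on the log2 scale (blocked adjusted p = 0.0351), and Sc5d by 0.27 (blocked adjusted p = 0.0487).

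Srebf1 and Insig2 were the genes of the SREBP machinery called under the block. Srebf1 was at 24.0, 67.9 and 16.9 CPM with shControl and at 14.8, 44.4 and 12.1 CPM with shNup153-2 (blocked log2 fold change -0.58, SE 0.08, edgeR adjusted p = 0.00399, and 0.692 without the block). It was lower within each number, and replicate 2 stood far above the others in both groups. Insig2 rose, from 25.2, 33.0 and 23.7 CPM to 37.4, 39.6 and 34.6 CPM, without overlap (blocked log2 fold change 0.48, SE 0.09, adjusted p = 0.00937, and 0.132 without the block). Srebf2 was at 239.9, 203.9 and 295.2 CPM against 226.2, 210.0 and 253.7 CPM, and Scap at 107.5, 104.2 and 100.3 CPM against 117.6, 118.2 and 99.6 CPM, and neither passed (blocked adjusted p = 0.608 and 0.282). Insig1 had levels of 102.7, 93.9 and 141.2 CPM against 80.6, 98.5 and 103.5 CPM (blocked adjusted p = 0.193). Stard4 and the 4 fatty acid genes did not pass with or without the block. In all, 13 of the 28 genes were lower within all 3 numbers and 2 higher (Ebp and Insig2), where 29% of all genes were lower and 26.2% higher.

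**Figure D5:**
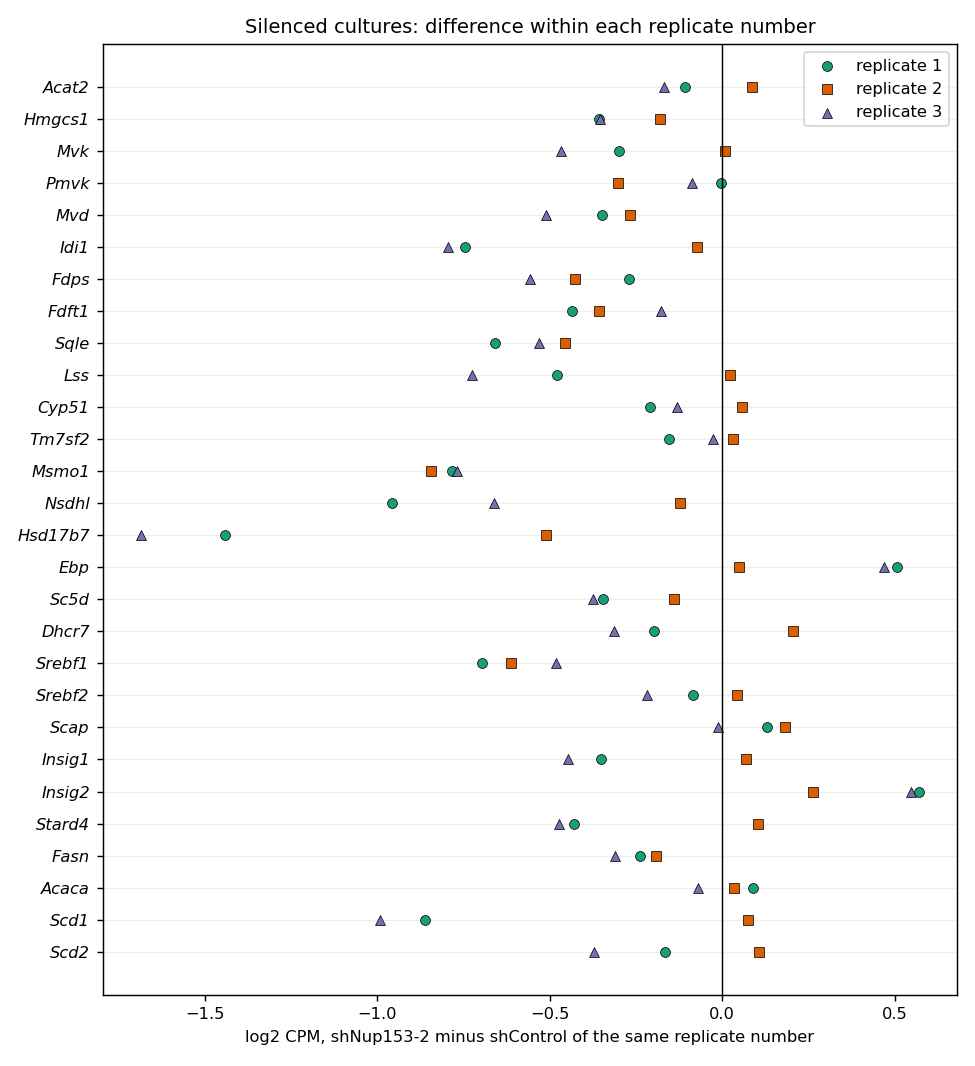
Difference in log2 CPM between shNup153-2 and shControl libraries of the same replicate number (x axis) for the 28 genes (y axis) in silenced cultures; colour and symbol give the number. Msmo1 lies between -0.84 and -0.77 in all 3 numbers, Insig2 lies above 0 in all 3, and Hsd17b7 is nearest to 0 in replicate 2.

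The replicate numbers of the silenced groups also share their astrocyte content. Astrocyte markers summed to 748, 1672 and 406 CPM with shControl and to 670, 1863 and 379 CPM with shNup153-2, and none of the 13 passed the test between the groups without the block, while with it 3 rose (Aldh1l1, Slc1a2 and S100b) and 1 fell (Acsbg1). The mean log2 CPM of the 17 sterol synthesis genes ran the other way, at 6.004, 5.69 and 6.45 with shControl and 5.60, 5.51 and 6.01 with shNup153-2. Scd1 and Srebf1 followed the order of the markers: Scd1 was at 77.7, 168.3 and 54.5 CPM with shControl and at 42.8, 177.2 and 27.4 CPM with shNup153-2.

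The effect of silencing itself was read between the tables, so the drug treatment and the table a library sits in cannot be told apart. In shControl cultures 1 of 28 genes rose, where 6.09% of all genes did: Tm7sf2, a sterol C14-reductase, from 21.0, 29.9, 14.7 and 26.2 CPM in basal to 39.8, 43.3 and 36.3 CPM in silenced cultures (log2 fold change 0.74, SE 0.20, edgeR adjusted p = 0.0356), without overlap. The call was lost in 4 of the 7 fits without 1 library (adjusted p from 0.0694 to 0.101 in those 4). With shNup153-2 none of the 28 genes passed between the states, where 21.7% of all genes did, and at an unadjusted p under 0.05 there were 4 higher and 1 lower, where 19.2% and 21% of all genes were. Nearest to the threshold stood Insig2 (log2 fold change -0.51, SE 0.17, adjusted p = 0.0506) and Dhcr7 (0.98, SE 0.34, adjusted p = 0.0584). Cell markers moved between the states too. Astrocyte markers summed to 406 to 1672 CPM in silenced shControl, against 773 to 3205 CPM in basal shControl, and to 379 to 1863 CPM against 2912 and 3342 CPM with shNup153-2. Of the 13 tested, Gfap fell in shControl cultures (log2 fold change -5.96), and with shNup153-2 Gfap, Slc1a2 and Atp1b2 fell (-6.52, -2.17 and -1.35). Of 16 tested markers of the oligodendrocyte lineage 4 rose and none fell in shControl cultures, among them Pdgfra (3.67) and Gpr17 (8.00), and 7 rose and 1 fell with shNup153-2. Of the 10 neuron markers 1 rose (Rbfox3, 0.60) and 2 fell in shControl cultures. With shNup153-2 there were 2 that rose (Tubb3, 1.80, and Camk2a, 1.26) and 2 that fell. Gad1 and Gad2, which make the transmitter GABA, were the 2 that fell in both (Gad1 by 1.57 and 1.85 on the log2 scale). The part of these cells in the state comparisons was not tested.

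Whether the effect of shNup153-2 differed between the states was tested as an interaction. None of the 28 genes passed in edgeR's test, and none had an unadjusted p under 0.05. Among all genes none passed either (0%), with 1230 lower and 1163 higher at an unadjusted p under 0.05 (5.88% and 5.56%), while DESeq2 called 251 genes and limma-voom 1. For Hsd17b7 the difference of the effects was -0.32 on the log2 scale (SE 0.46, adjusted p = 0.785), and for Msmo1 0.67 (SE 0.48, adjusted p = 0.579). At SEs of this size a p above the threshold does not show that the effects were equal.

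Genes around the pathway were read from 5 lists. Among all genes tested, 7.05% fell and 6.52% rose with shNup153-1. With shNup153-2, 3.64% fell and 5.91% rose in basal cultures, and 1.83% fell and 1.61% rose in silenced cultures without the block. Among genes that process SREBPs or degrade pathway enzymes, Mbtps2, the site-2 protease that frees SREBPs, fell with shNup153-1 (log2 fold change -0.87, SE 0.20, edgeR adjusted p = 0.0241), as did Rnf139 (-0.95), and none of the 10 tested rose. Among genes of lipoprotein uptake and sterol trafficking, Scarb1 and Gramd1b rose with shNup153-1 (log2 fold changes 0.76 and 0.78). Of 10 genes of sterol efflux, storage and turnover, Cyp46a1, the neuronal cholesterol 24-hydroxylase, rose with shNup153-1 (1.20, SE 0.24, adjusted p = 0.0140) and with shNup153-2 (1.17, SE 0.24, adjusted p = 0.0259), and Nr1h2 rose with shNup153-1 (0.84). Gramd1b, which moves cholesterol from the plasma membrane to the endoplasmic reticulum, rose with shNup153-2 by 1.31 (SE 0.17, adjusted p = 0.00633). Both hairpins share their controls here.

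Among 17 tested genes of fatty acid and glyceride synthesis, Me1 (0.62) and Thrsp (1.60) rose and Elovl6 (-1.01) fell with shNup153-1, and Acacb (1.30), Elovl5 (0.84) and Me1 (0.67) rose with shNup153-2 in basal cultures. Pgrmc1, of the processing list, fell with shNup153-2 (-1.07). Of the 9 other synthesis enzymes Ggps1, which makes geranylgeranyl diphosphate, fell with shNup153-2 in basal (-0.76, SE 0.17, adjusted p = 0.0321) and in silenced cultures (-0.56, SE 0.10, adjusted p = 0.0334). In silenced cultures Osbp (-0.72) and Nceh1 (-0.89) fell as well, and no other gene of these 5 lists passed there without the block. With the block, 5 of the 9 other synthesis enzymes fell there and 1 rose, and of 9 tested genes of sterol efflux, storage and turnover 5 fell and 1 rose, the latter being Cyp46a1 (0.82, SE 0.07, adjusted p = 0.000921). Of 10 processing genes 1 fell and 2 rose, and of 13 genes of uptake and trafficking 2 fell and 2 rose. Of 17 genes of fatty acid and glyceride synthesis 1 fell and 4 rose. Among all genes that blocked fit called 10.3% lower and 11.7% higher.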

How the data were processed

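RNA of 16 cultures was measured by poly(A) RNA-seq, and 14 libraries could be tied to their labels by column name. The authors deposited whole-number counts per gene in 1 table for basal and 1 for silenced cultures; per the submitters' processing notes FastQC and featureCounts 2.0.1 were used with build mm10, and no source used here names the aligner. The 2 columns with a repeated name were left out. The shNup153-1 columns were found to be displaced by 1 line from line 16420 and by up to 4 further down: the correlation with the controls across genes was 0.976 over the lines used and 0.0923 over the 9952 lines from the first displaced one on.

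Counts were tested with edgeR 4.0.16 (filterByExpr with a minimum count of 10, TMM scaling, quasi-likelihood test, two-sided, R 4.3.3) over all genes, with Benjamini-Hochberg adjustment and a threshold of 0.05; all 28 genes passed the filter wherever they had a value. The fit of shNup153-1 held all 3 basal groups, that of shNup153-2 the groups compared, and the state comparisons the 4 groups with shControl or shNup153-2. Alternatives were DESeq2 1.42.0, limma-voom (limma 3.58.1), RLE scaling, no filter, other sample sets, leaving out each library and the replicate number as a block. The fits were checked on simulated data. Gene lengths and overlaps come from GENCODE vM21, promoters from RefSeq.

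All members could be named, with values per library for those called in any comparison and for Srebf1, Srebf2, Scap, Insig1 and Insig2; of each pathway list up to 6 called genes with the smallest p were to be named. Some results that this rule would name are not reported here. The members and lists were chosen with earlier results of these data known. Equal numbers in the silenced groups had correlated deviations (0.294, 0.573 and 0.616), so the block is given beside those results; 1 litter is 1 replicate per the labels, but whether equal numbers share a litter is not given.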

Additional observations from a re-analysis of the deposited data

Results flagged for a closer look

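In basal shControl cultures, 3 genes had 1 library set apart from the other 3 by most of the group's range: Msmo1 at 303.9 CPM and Sc5d at 126.6 CPM, both in replicate 2, and Scd2 at 1875 CPM in replicate 1. Chance sets apart about 1 in 20 groups in this way. Replicate 2 is the basal shControl library with the lowest astrocyte marker sum (773 CPM) and the highest mean over the 17 sterol synthesis genes, and the part of the astrocytes was not tested. Hsd17b7 differed between the hairpins by 1.98 on the log2 scale in basal cultures, higher with shNup153-2, in a direct edgeR test (adjusted p = 0.0406).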

How the results depend on the processing

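No member with an unadjusted p under 0.05 in the edgeR test reported changed sign under any alternative run; of these single-gene results 347 kept their side of the threshold, 27 lost the call and 44 gained it. DESeq2 called 9 of 27 members, all lower, and 3146 genes for shNup153-1, where 11.2% of all genes fell. For shNup153-2 in basal cultures it called 2 of 28 lower and 1 higher, and 3624 genes, where 8.64% of all genes fell. Between the hairpins it called 3 of 27, all higher, and 2102 of 14529 genes. In silenced cultures it called 2 of 28, both lower, and 1791 genes, where 4.77% of all genes fell. For the interaction it called 251 genes. Between the states with shNup153-2 it called 2 members, 1 lower and 1 higher, where 15.2% of all genes fell. Limma-voom called 1 member lower between the states with shNup153-2, where 14.2% of all genes fell, and 1 gene for the interaction. Without the count filter 2 members were called lower in silenced cultures, where 1.32% of all genes fell, and 3 genes were called for the interaction. The shNup153-1 columns as deposited, with displaced lines kept, gave 7997 genes against shControl. They gave 8 of 28 members there, all lower, where 18.8% of all genes fell. Between the hairpins they gave 6665 genes and 4 of 28 members, all higher, where 14.7% of all genes fell. A fit of only the groups compared gave 1203 genes for shNup153-1. Over the lines above the displaced ones, all 3 basal groups gave 2 members for shNup153-2 (0 over all lines), both lower, where 5.16% of all genes fell. With shNup153-1 added to the state fit, 1 of 27 members was called higher and 0 lower between the states with shNup153-2, where 13% of all genes fell. That fit called 6 genes for the interaction. Some values without a call changed sign. With the block, Srebf2 with shNup153-2 in basal cultures went from 0.16 to -0.01 and Srebf1 with shNup153-1 from -0.10 to 0.15. In both, the block also takes shControl replicates 3 and 4, which have no partner, out of the difference. Between the states with shControl the members' median went from 0.09 to -0.12 without replicate 3 of silenced shControl. For the interaction the median went from 0.07 to -0.16 without replicate 2 of basal shControl.

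With the replicate number as a block, 12 members and 4161 genes (21.9%) were called in silenced cultures, against 1 and 654 (3.45%) without it. Between the states with shControl there were 7 members and 4166 genes (19.9%). Between the states with shNup153-2 there were 11 members and 5731 genes (27.4%), and for the interaction 2 genes. These state fits block the basal libraries too. In basal cultures the numbers do not pair the samples (correlations of -0.579 and -0.650 for shNup153-1 and 0.216 and -0.0336 for shNup153-2 with shControl of the same number). There the block called 0 members and 0 genes for shNup153-1 and between the hairpins. For shNup153-2 it called 9 members, all lower, where it called 4.07% of all genes lower and 6.83% higher. Replicates 3 and 4 exist only in shControl here, so the block takes them out of the differences from shControl. Those differences thus rest on replicates 1 and 2, and replicate 2 of shControl stood highest of the controls in sterol synthesis genes. Few libraries are left to estimate the spread, so these 9 calls carry little weight.

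Leaving out 1 library at a time gave 0 to 5 members and 356 to 2050 genes for shNup153-1, 0 to 1 and 15 to 2211 for shNup153-2 in basal cultures, 0 members and 0 to 500 genes between the hairpins, 0 to 2 and 4 to 659 in silenced cultures, 0 to 3 and 1069 to 3426 between the states with shControl, 0 to 1 and 841 to 4003 with shNup153-2, and 0 members and 0 to 12 genes for the interaction. Where this leaves 1 library in a group, that library is assumed to vary like the others. With 2 libraries per knockdown group in basal cultures, the number of libraries limits these tests. Unless a fit holds fewer libraries or genes, the cause of a change was not tested.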
